A study of Homo sapiens with 8 samples.

Results

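The genes described are the 3 inositol 1,4,5-trisphosphate (IP3) receptor genes, ITPR1, ITPR2 and ITPR3, with all METTL3 RNA immunoprecipitation (RIP-seq) peaks that lay whole within their annotated spans. There were 7 such peaks among the 3649 peaks of 2 deposited lists, 2 of 2616 in LNCaP and 5 of 1033 in PC3. All 7 lay within ITPR3 and on its plus strand, so 1 of the 3 genes carried peaks, in both cell lines, and ITPR1 and ITPR2 carried none in either line. The peaks were selected on their coordinates in the authors' lists, and the genes were chosen by peaks already known to lie there, so their number, place, strand, fold and p are given as a description without a test.

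IP3 receptors are calcium channels of the endoplasmic reticulum. Phospholipase C at the plasma membrane releases IP3, which opens the channel together with calcium itself, and the calcium that leaves the store acts in the cytosol and in nearby mitochondria. The 3 genes encode related subunits that assemble as tetramers. Type 1 is best known from neurons, and type 3 is prominent in secretory and other epithelial cells. METTL3 is the catalytic subunit of the complex that places N6-methyladenosine on RNA, a mark that in many transcripts gathers near the stop codon.

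LNCaP and PC3 are established prostate cancer cell lines, each started from a metastasis, the first androgen-sensitive and the second androgen-independent. Of 8 samples, 2 were METTL3 IP and 2 were input in each line, with no genetic change or drug named in the labels. The medium held 20% fetal bovine serum for LNCaP and 10% for PC3. In each preparation 80% of the lysate went to the METTL3 antibody and 10% was kept as input, and a rabbit IgG control described in the protocol was not analysed here. The deposited result is 1 list of peaks per line, so a peak's fold and p are the authors' single values for that line, with no value per replicate, no error between replicates and no known depth. The denominator of the fold is not named in the files, and reading it as input rests on the design. Serum, cell line and list cannot be told apart. Among luminal markers, FOLH1 and TMPRSS2 had a peak in LNCaP and no peak in PC3. Of 4 PC3 markers, 0 had a peak in either list, and a peak list gives no expression level by which to check a line's identity.

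ITPR3 encodes the type 3 receptor. The gene occupies chromosome 6 from 33621322 to 33696562 on GRCh38, a span of 75241 bp on the plus strand that overlaps no other protein-coding gene. In LNCaP it carried 2 peaks. The first LNCaP peak ran from 33655770 to 33657964 (2195 bp), with a fold of 4.17 and a p of 0.00689. It lay near the middle of the gene, between 45.8% and 48.7% of the span from the annotated start. The second LNCaP peak ran from 33675789 to 33677621 (1833 bp), with a fold of 19.7 and a p of 7.49e-06. It lay further towards the 3′ end, between 72.4% and 74.8% of the span. Within the LNCaP list the second peak stood high, at rank 71 of 2616 by fold and rank 336 by p, while the first ranked 2027 by fold and 2238 by p.

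In PC3 the gene carried 5 peaks. The first PC3 peak was long, from 33621617 to 33658765 (37149 bp, introns included), with a fold of 6.92 and a p of 4.54e-15. It began 295 bp after the annotated start of the gene and covered nearly everything up to 49.8% of the span. By length it ranked 22 of 1033 in its list, whose median length was 922 bp. The second PC3 peak ran from 33673677 to 33678437 (4761 bp) and was the highest of the 5 by both measures, with a fold of 12.9 and a p of 1.29e-25. It ranked 66 by fold and 83 by p.

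The other 3 PC3 peaks were short and followed within 6929 bp of the end of the second. The third PC3 peak ran from 33680124 to 33680344 (221 bp), with a fold of 8.40 and a p of 8.51e-06. This p was among the largest of its list, at rank 1024 of 1033. The fourth ran from 33684359 to 33684616 (258 bp), with a fold of 12.1 and a p of 9.32e-08. The fifth ran from 33684876 to 33685366 (491 bp), with a fold of 6.05 and a p of 2.46e-06. Only 259 bp separated the fourth from the fifth. The fold of the fourth peak, at rank 84, was thus close to that of the long second peak, although its p ranked 672. In the map of peaks along ITPR3, 4 of the 5 PC3 midpoints and 1 of the 2 LNCaP midpoints fell in the last of 3 equal parts of the span.

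**Figure D1:**
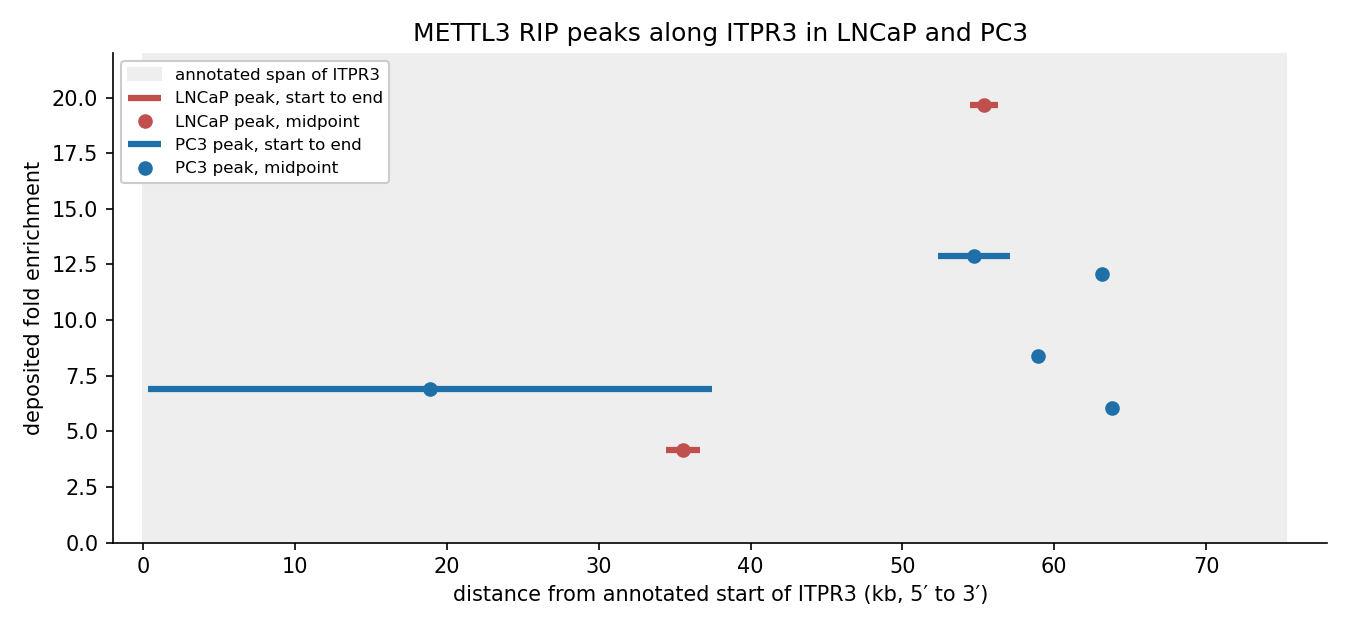
Peaks of LNCaP (red) and PC3 (blue) within ITPR3, by distance from the annotated start in kb (horizontal axis) and deposited linear fold (vertical axis). Bars run from the start to the end of a peak and dots mark midpoints, which hide the bars of the 3 shortest peaks. The highest LNCaP peak, with a fold of 19.7, lies over the highest PC3 peak, with a fold of 12.9, and no peak lies in the last 11196 bp of the gene.

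Both LNCaP peaks lay whole inside a PC3 peak on the same strand. The first LNCaP peak was nested in the first PC3 peak, of which it covered 5.91%. It ended 801 bp before the PC3 peak but began 34153 bp after it, so the part in common was the 3′ end of the PC3 peak. The authors' folds of these whole peaks were 4.17 in LNCaP (2195 bp) and 6.92 in PC3 (37149 bp). No fold is given for the shared part alone. The second LNCaP peak was nested in the second PC3 peak and covered 38.5% of it, beginning 2112 bp after and ending 816 bp before it. The folds of these 2 whole peaks were 19.7 in LNCaP (1833 bp) and 12.9 in PC3 (4761 bp), the largest on the gene in each line. The order of the lines by whole-peak fold was thus opposite for the 2 pairs. These folds cover unlike lengths, were made separately in each list and have no error to compare them by. Over the whole lists, 557 of 2616 LNCaP peaks (21.3%) had a base in common with a PC3 peak on the same strand, and 331 of these 557 (59.4%) were nested in one. The remaining 3 PC3 peaks on ITPR3 met no LNCaP peak, so 2 of 2 LNCaP peaks and 2 of 5 PC3 peaks were shared. In the whole PC3 list 459 of 1033 peaks (44.4%) were, a share close to that on the gene. With 50% of both peaks required, 0 were shared in either line.

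The peaks in PC3 covered 42880 bp of the gene, or 57.0% of its span, and those in LNCaP 4028 bp, or 5.35%. All of the LNCaP bases were also covered in PC3. The first PC3 peak made up most of the PC3 figure. The peaks are given as genomic spans, and the annotation used here holds no exons, so how much of either figure is exon is not known. Between the first and second PC3 peaks, 14911 bp held no peak in either line, and the last 11196 bp of the gene, its 3′ end, were likewise without one. The first PC3 peak also ran across ITPR3-AS1 (33631244 to 33633745) and LOC124901305 (33630038 to 33631971), both listed as long noncoding RNAs. Both LNCaP peaks and the other 4 PC3 peaks lay outside these loci. The library kit was stranded per the labels' protocols, and how strand was used in calling peaks is not given in the sources used here.

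Against the background, a gene with a peak was uncommon in each list. Of 19974 protein-coding genes, 1081 carried at least 1 LNCaP peak (5.41%) and 357 at least 1 PC3 peak (1.79%), counting peaks that a single protein-coding gene held whole. Both lists held a peak on 227 genes (1.14%), and 204 genes (1.02%) had peaks that shared bases on the same strand, as ITPR3 did. Among genes with a peak, 528 of 1081 (48.8%) had at least 2 in LNCaP, the number on ITPR3. In PC3, 57 of 357 (16.0%) had at least 5. Nothing is read from these shares, since ITPR3 was chosen for its peaks. The median fold of the ITPR3 peaks was 11.9 in LNCaP and 8.40 in PC3, and the median of the whole list was 5.26 and 5.74. The LNCaP value is only the midpoint of 2 peaks, with folds of 4.17, below the list median, and 19.7.

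The number of peaks on ITPR3 depended on how large a p was allowed. LNCaP peaks were listed up to a p of 0.0178 and PC3 peaks up to 1.59e-05. At or under the PC3 limit, ITPR3 had 1 LNCaP peak, the one with a fold of 19.7, and 5 PC3 peaks, and 249 genes (1.25%) carried a LNCaP peak. A stricter limit of 1e-10 kept 0 LNCaP and 2 PC3 peaks on the gene, the latter being the first and the second. The plot of fold against p shows that these p-values sat at different places in the lists. A p close to 1e-05 was among the largest of the PC3 list, whereas in LNCaP 7.49e-06 ranked 336 of 2616. By fold, the third PC3 peak, with a p of 8.51e-06, ranked 227 of 1033.

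**Figure D2:**
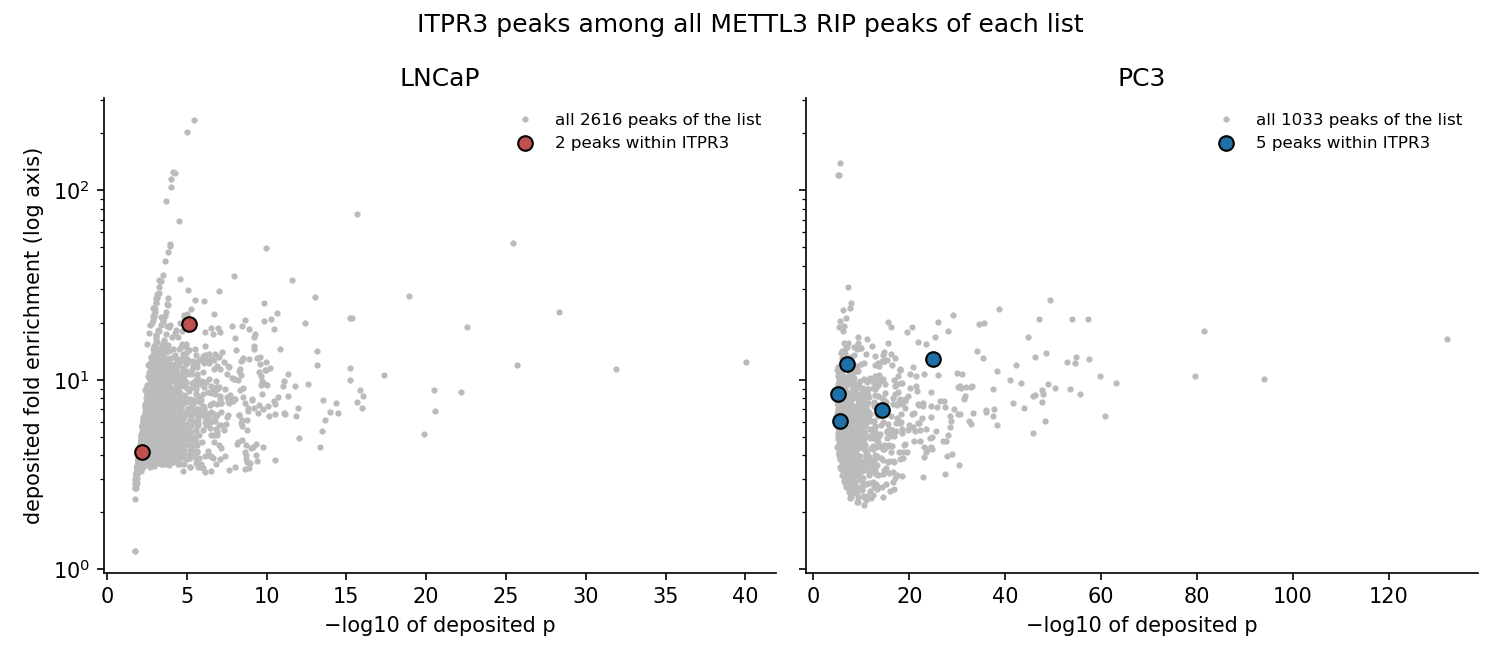
Deposited fold (vertical, log axis) against −log10 of the deposited p (horizontal, with a different range in each panel) for all 2616 LNCaP peaks (left) and all 1033 PC3 peaks (right), each grey dot 1 peak, with the peaks within ITPR3 in colour. The LNCaP peak with a fold of 19.7 stands above most of its list, and the third and the fifth PC3 peak lie at the left edge, where p is largest.

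ITPR1 encodes the type 1 receptor and ITPR2 the type 2 receptor. ITPR1 occupies chromosome 3 from 4493348 to 4847506 (354159 bp, plus strand), and no peak of either list touched it, in whole or in part. The nearest peaks on the same chromosome were on SETD5, 4586881 bp away in LNCaP and 4595891 bp away in PC3. ITPR2 occupies chromosome 12 from 26335352 to 26833194 (497843 bp), and again no peak touched it. The nearest was on PPFIBP1 in PC3, 855974 bp away, and in LNCaP it was 4188743 bp away. ITPR3 thus had all the peaks although its span is the shortest of the 3. In LNCaP the share of genes with a peak was larger at each greater minimum length, which was not so in PC3. Among the 599 protein-coding genes at least as long as ITPR1, 18.2% had a LNCaP peak and 3.17% a PC3 peak. Among the 317 at least as long as ITPR2 the shares were 22.1% and 2.84%, and among the 4416 at least as long as ITPR3 they were 11.6% and 3.99%. Most genes of any of these sizes had no peak, as ITPR1 and ITPR2 had none. How strongly the lines express each receptor gene is not known from the lists, so the lack of a peak is not a measurement of METTL3 on the transcript.

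No peak stood at the edge of the rule, since none was partly inside any of the 3 genes. The peaks closest to ITPR3 from outside were at BRD2 (640723 bp away, fold 6.24) and DEF6 (1616173 bp away, fold 17.6) in LNCaP. In PC3 they were at HSPA1A (1803684 bp away, fold 4.19) and TRERF1 (8539755 bp away, fold 6.11).

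The genes around the receptors in the IP3 and calcium pathway were looked up in the same lists. Of 76 genes listed, 75 were protein-coding in the table. ORAI1, the pore of store-operated calcium entry, was entered there under another class and was not counted. A peak was present on 8 of the 75 in LNCaP (10.7%) and on 3 in PC3 (4.0%), beside 5.41% and 1.79% of all protein-coding genes. Without TRPM2, which was known beforehand to carry peaks, 7 of 74 (9.46%) had one in LNCaP and 2 of 74 (2.7%) in PC3. The listed genes were not matched for length, and the difference was not tested. Among genes at least as long as ITPR3, 11.6% had a LNCaP peak and 3.99% a PC3 peak. That minimum length was not applied to the listed genes, and whether length bears on their shares was not tested. With the PC3 limit on p, 3 of the 8 LNCaP genes kept a peak, namely ATP2A2, RYR2 and TRPM2. The median fold over the deposited peaks of the listed genes was 4.83 in LNCaP (20 peaks) and 9.62 in PC3 (7 peaks). TRPM2 supplied 4 of the 7 PC3 peaks, and without it the PC3 median was 5.20 (3 peaks), while that of LNCaP was still 4.83 (16 peaks). On the enzymes that make IP3, PLCG1, the phospholipase C activated by receptor tyrosine kinases, had 2 LNCaP peaks with folds of 11.1 and 6.62. PLCB3, which acts downstream of G proteins, had 2 PC3 peaks with folds of 5.70 and 5.20. Each of these enzymes had peaks in a single line, and the other 13 phospholipase C genes and relatives had none.

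Of the 6 genes of IP3 turnover, 2 had a peak, both in LNCaP. Over all protein-coding genes the shares were 5.41% in LNCaP and 1.79% in PC3. The groups are small, so nothing is read from this count or from those of the groups that follow. INPP5A, which removes a phosphate from IP3, had folds of 6.52 and 4.39. ITPKB, which adds a phosphate to it, had a single peak, 51 bp long, of fold 4.95. Of the 7 genes listed as other intracellular calcium channels, 2 had peaks, each in both lines. They were RYR2 and TRPM2, the latter listed with its peaks already known. RYR2, a ryanodine receptor that releases calcium from the same store, had a peak with identical bounds in both lists (chromosome 1, 237595654 to 237610846), whose LNCaP fold was 7.95 and whose PC3 fold was 2.86. It had a further LNCaP peak of 51 bp with a fold of 3.73. RYR1 and RYR3 had none, so peaks lay on 1 of 3 ryanodine receptor genes, the same count as for the IP3 receptors. By fold, the PC3 peak on RYR2 ranked 985 of 1033, whereas the highest PC3 peak on ITPR3 ranked 66.

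TRPM2, a cation channel opened by ADP-ribose, had 4 peaks in each list, with folds from 3.49 to 17.5 in LNCaP and from 9.62 to 19.0 in PC3, but 1 of the 4 in each list was on the minus strand whereas the gene is on the plus strand. It was known from an earlier account of these data to carry peaks. Among calcium pumps, ATP2A2, which refills the endoplasmic reticulum, had 6 LNCaP peaks in a narrow range of folds from 4.05 to 5.46. STIM1, the sensor of store calcium, had 2 LNCaP peaks of 51 bp with folds of 9.0 and 9.75. PRKCA, a kinase that responds to calcium and diacylglycerol, had 1 LNCaP peak with a fold of 4.72. None of the 16 partners and regulators of the receptor, among them BCL2 and the calmodulin genes, carried a peak in either list. The same held for the 7 genes of calcium transfer and storage, among them MCU and VDAC1. With 5.41% of all protein-coding genes carrying a LNCaP peak and 1.79% a PC3 peak, nothing is read from these absences. In the plot of folds by gene, ITPR3 and TRPM2 were the genes with a fold above 12 in both lines.

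**Figure D3:**
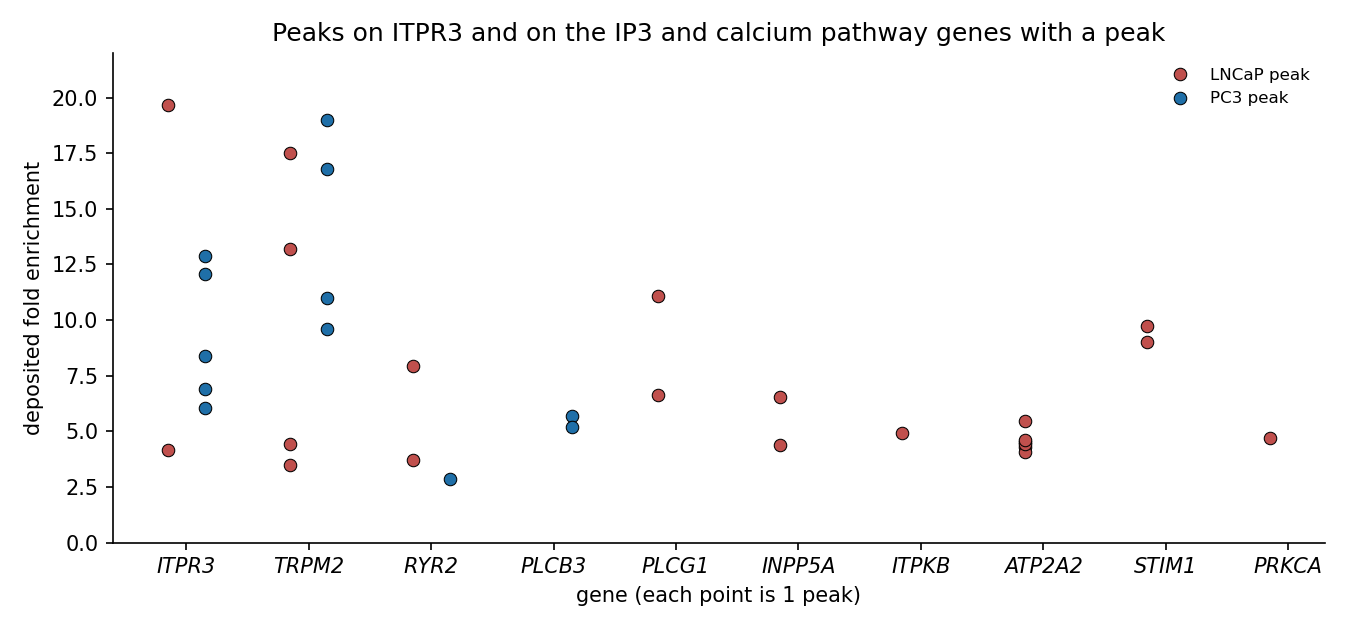
Deposited linear fold (vertical axis) of each peak on ITPR3 and on the 9 pathway genes with a peak (horizontal axis), in LNCaP (red) and PC3 (blue), 1 point per peak. Points in both colours appear for ITPR3, TRPM2 and RYR2, PLCB3 has PC3 points alone, and the other 6 genes have LNCaP points alone.

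The genes most like ITPR3 were sought over the 227 genes with a peak in both lists, by the distance between log2 of 1 plus the number of peaks and log2 of the largest fold in each of the 2 lists. The nearest was TRPM2, at a distance of 0.98, with 4 peaks in each list and largest folds of 17.5 in LNCaP and 19.0 in PC3. ROBO1, a guidance receptor, followed at 1.06, with the same 2 and 5 peaks as ITPR3 and largest folds of 23.6 and 6.33. POLR2A, the large subunit of RNA polymerase II, was at 1.07, with 5 and 4 peaks and largest folds of 22.7 and 11.5. The measure rests on 4 numbers per gene from 2 lists and is a description.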

How the data were processed

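Per the submitters' processing notes, the build was hg38 and fastp, STAR 2.5.3a, bedtools and deepTools were used, with no role stated. The peak caller, its thresholds and the handling of replicates are not given in the sources used here. The deposited lists give, per the file headers, a linear fold ratio and a p-value for each peak, with an FDR and a score derived from that p. The FDR was found to be the p-values adjusted by Benjamini-Hochberg over the listed peaks alone, and the deposited score to be −log2 of it.

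From these, peaks were matched by coordinates to RefSeq gene spans (GRCh38.p14), whole within the span. For counts over all genes, the autosomes and X were used, and a peak counted where a single protein-coding gene contained it. Ranks are within a list. Strand of genes came from a RefSeq promoter table that held ITPR1 and ITPR3. Overlap needed 1 bp on the same strand. Python 3.11.15 with pandas 2.3.3 and numpy 2.4.6 was used, and interval matching was tested on simulated data. Sequencing depth is unknown and no test between samples could be run.

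Members, gene lists and alternatives were chosen with earlier results of these data known, and the comparison with genes of similar or greater length was added after the peaks were seen. Named genes are the 3 receptors, every pathway gene with a peak and the 3 genes nearest to ITPR3 over both lists. Genes next to the receptors were named for their position. Not every marker looked for is reported here.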

Additional observations from a re-analysis of the deposited data

How the results depend on the processing

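No paired analysis was possible because the lists hold no values per replicate, so leaving out single replicates was not possible either. Of 68 alternative values, 56 stayed as given (a count within 1.5 times, or an identical fold) and 12 moved. Part of the 56 could not have moved, so the tally is no measure of stability. ITPR1 and ITPR2 keep 0 peaks under any stricter limit, and the largest PC3 p removes nothing from the PC3 list. Beside the 68, further alternatives were added after the data were seen. The share of genes with a peak moved in all 6 comparisons limited to genes at least as long as a receptor gene, as given above. Leaving out TRPM2 moved the PC3 pathway median to 5.20 and not that of LNCaP. Applying the largest PC3 p to both lists left 1 LNCaP peak on ITPR3, with a fold of 19.7 that then was also the median, 1 shared peak in each line and 3 pathway genes with a LNCaP peak. A p of at most 1e-10 left 0 LNCaP peaks and 2 PC3 peaks on ITPR3, a PC3 median fold of 9.90, and 0 LNCaP and 1 PC3 pathway gene, and gave no LNCaP fold. Requiring 50% of both peaks left 0 shared peaks in LNCaP and 0 in PC3. A fold of at least 4, any contact with the gene span, the gene's strand alone, and joining peaks within 25 bp left the values on the receptor genes that they were run on as they were. A fold of at least 4 took the PC3 pathway genes from 3 to 2. The strand alternative was not run for ITPR2, and took the LNCaP pathway genes from 8 to 7 because the strand of INPP5A was not in the table. What depth limits cannot be said.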
